A study of Mesocricetus auratus with 8 samples.

Results

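The FOS, JUN and EGR families are small groups of transcription factors whose genes include the best known immediate early genes, which respond to a stimulus before any new protein is made. The 10 genes described here are Fos, Fosb, Fosl1 and Fosl2 of the FOS family, Jun, Junb and Jund of the JUN family, and Egr1, Egr2 and Egr3 of the EGR family. They were taken from the deposited table by gene symbol, and all 10 were found among its 17590 genes with values. They were followed in 8 RNA-seq libraries of primary satellite cells (SCs), which repair skeletal muscle as its stem cells, from the hindlimbs of wild-type Syrian hamsters, which were sexually mature males. The 4 control libraries, at 0 h of cold, came from SCs kept at 37°C for 48 h in growth medium and for a further 24 h in growth medium with 100 mM HEPES, a pH buffer. The 4 cold libraries came from SCs given the same preculture and then 24 h at 4°C with no change of medium. The cells were enriched by preplating. The study calls the 4 libraries of a group biological replicates. Which animals or cultures the numbers 1 to 4 mark is not given in the labels, so p-values measure the spread between these samples. The treatment labels of control replicates 1 to 4 read 3, 4, 5 and 6 days at 37°C, whereas their titles place all of them on day 3. The titles were followed here. If they hold, cold libraries were also collected 24 h later than any control library, and cold and added time in culture cannot be told apart.

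FOS and JUN proteins pair through a leucine zipper to form AP-1, a dimer that binds a short palindromic DNA element. FOS proteins bind DNA only with a partner, whereas JUN proteins can also pair with each other. EGR proteins bind GC-rich sites through zinc fingers. Transcription of Fos and Egr1 is switched on within minutes by serum, growth factors or stress, through ERK signalling and the serum response factor SRF, and their mRNAs are short-lived. In muscle, AP-1 and EGR factors are known as early genes of SC activation and of tissue dissociation.

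The table gives an estimated read count and a TPM value (a transcript level scaled by transcript length and by library) for each gene and library. Library totals were between 16530747 and 18093905 counts in the control group and between 17388779 and 18533801 in the cold group. In a principal component analysis of all genes tested, the first component (54.5% of the variance) set replicates 1 and 2 apart from 3 and 4 at either temperature, and the second (17.9%) set cold apart from control. For this reason each value is given per library, with replicates 1 and 2 and replicates 3 and 4 also shown separately. The cells carried SC and myoblast markers, with a summed level of 2313 to 3253 TPM in control and 2039 to 2698 TPM in the cold libraries over 9 of 9 markers. Of 5 macrophage and leukocyte markers, Ptprc, Adgre1 and C1qa were at or under 0.1 TPM in every library, whereas Cd68 was at 23.3 to 52.0 TPM and Csf1r at 2.31 to 4.55 TPM.

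The largest difference within the families was in Egr1 and Fos, and it was carried by replicates 1 and 2. Egr1 was 5.84 and 11.99 times as abundant in cold as in control in these replicates, and 0.898 and 0.953 times as abundant in replicates 3 and 4. Fos was 4.18 and 8.24 times as abundant in replicates 1 and 2, and 1.44 and 1.63 times in replicates 3 and 4. The abundant AP-1 genes, Jun, Fosl1, Fosl2 and Junb, lay within 0.930 to 1.23 times the control level in every pair. The 10 genes were chosen by name with their counts and TPM in cold and control libraries in view, that is, selected on the contrast itself, so their differences, and the outcome of the fits over all genes for them, are given as a description and not as evidence.

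**Figure D1:**
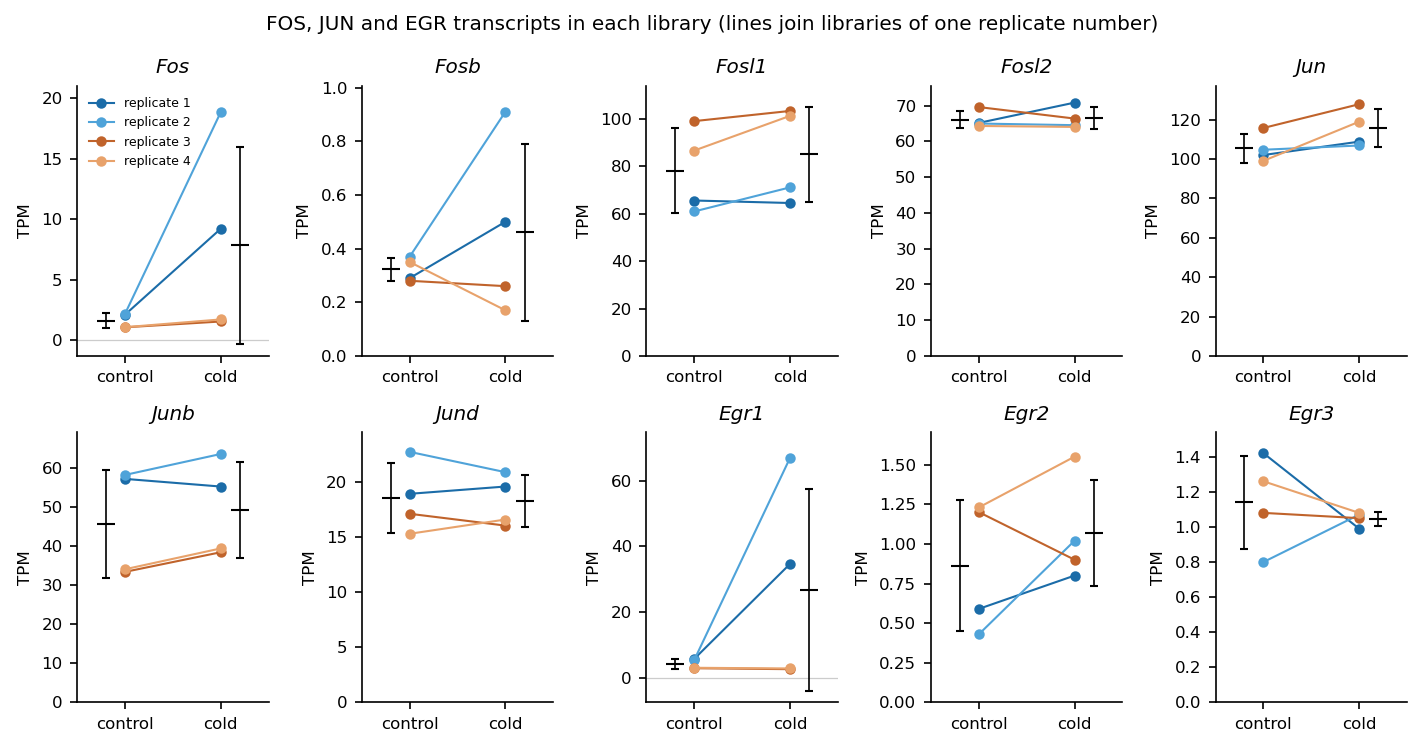
TPM (vertical axis, from 0 or just below) of each gene in control and cold libraries, with lines joining libraries of one replicate number and black bars giving mean ± SD (n = 4). Egr1 reached 34.7 and 67.0 TPM in cold replicates 1 and 2 and stayed at 2.55 and 2.77 TPM in cold replicates 3 and 4, while Fosl2 stayed between 64.1 and 70.9 TPM in all 8 libraries.

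Fos, the founding partner of JUN in AP-1, had 2.13, 2.21, 1.08 and 1.09 TPM in control replicates 1 to 4. The cold libraries had 9.22, 18.9, 1.56 and 1.73 TPM. Cold replicates 1 and 2 lay above every control library, and cold replicates 3 and 4 lay between the control values, so the groups overlapped. The cold library was higher than the control library of its number in 4 of 4 pairs. The counts behind these levels were 48, 52, 23 and 25 in control and 220, 423, 35 and 39 in cold libraries. The 95% counting interval of the cold to control ratio was 3.05 to 5.84 in replicate 1 and 6.17 to 11.2 in replicate 2. It included 1 in replicate 3 (0.830 to 2.56) and replicate 4 (0.959 to 2.80), where a difference was not detectable at this depth. Such intervals hold for counting error alone, because reads without molecular identifiers are not independent molecules. The mean was 1.63 ± 0.627 TPM in control and 7.84 ± 8.16 TPM in the cold libraries (SD, n = 4 per group), a cold spread larger than the cold mean. The edgeR log2 fold change of Fos was 2.25, with a standard error (SE) of 0.79. It was 2.62 (0.27) in replicates 1 and 2 alone, 0.61 (0.28) in replicates 3 and 4 alone, and 1.32 (0.66) without cold replicate 2. The SE of 0.27 does not measure the spread of cold replicates 1 and 2, at 9.22 and 18.9 TPM. As a mean over the 4 pairs, limma on log2(TPM + 0.1) gave 1.55.

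Fosb, another immediate early partner of JUN, was the least abundant gene of the set, with 7 to 38 counts per library. Its level was 0.29, 0.37, 0.28 and 0.35 TPM in control and 0.50, 0.91, 0.26 and 0.17 TPM in cold replicates 1 to 4. The highest values again belonged to cold replicates 1 and 2, and the lowest to cold replicates 4 and 3. The counting interval of the ratio excluded 1 only in replicate 2 (1.31 to 4.62). The log2 fold change of Fosb was 0.50 (SE 0.48), and it turned to −0.53 in replicates 3 and 4 alone and to −0.07 without cold replicate 2.

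Fosl1 and Fosl2, which encode the FOS-related proteins FRA1 and FRA2, held most of the FOS transcripts. Fosl1 had 65.6, 61.0, 99.1 and 86.7 TPM in control and 64.5, 71.1, 103 and 101 TPM in cold replicates 1 to 4. In both groups replicates 3 and 4 were higher than replicates 1 and 2, with a control ratio between those sets of 0.681 and a cold ratio of 0.663. The difference between the sets was therefore larger than that between cold and control, a log2 fold change of 0.11 (SE 0.18). Leaving out 1 library put the latter between 0.01 (without cold replicate 3) and 0.23 (without control replicate 3). Fosl2 had 65.2, 65.0, 69.6 and 64.3 TPM in control and 70.9, 64.5, 66.4 and 64.1 TPM in the cold libraries. It was the steadiest gene of the set, with a highest value 1.11 times the lowest over the 8 libraries and a log2 fold change of −0.01 (SE 0.05). The share of Fos in the summed TPM of its family was 1.60%, 1.72%, 0.635% and 0.715% in control and 6.35%, 12.1%, 0.909% and 1.03% in cold replicates 1 to 4. Fosl1 and Fosl2 thus made up the bulk of FOS transcripts even in the 2 cold libraries with the most Fos.

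**Figure D2:**
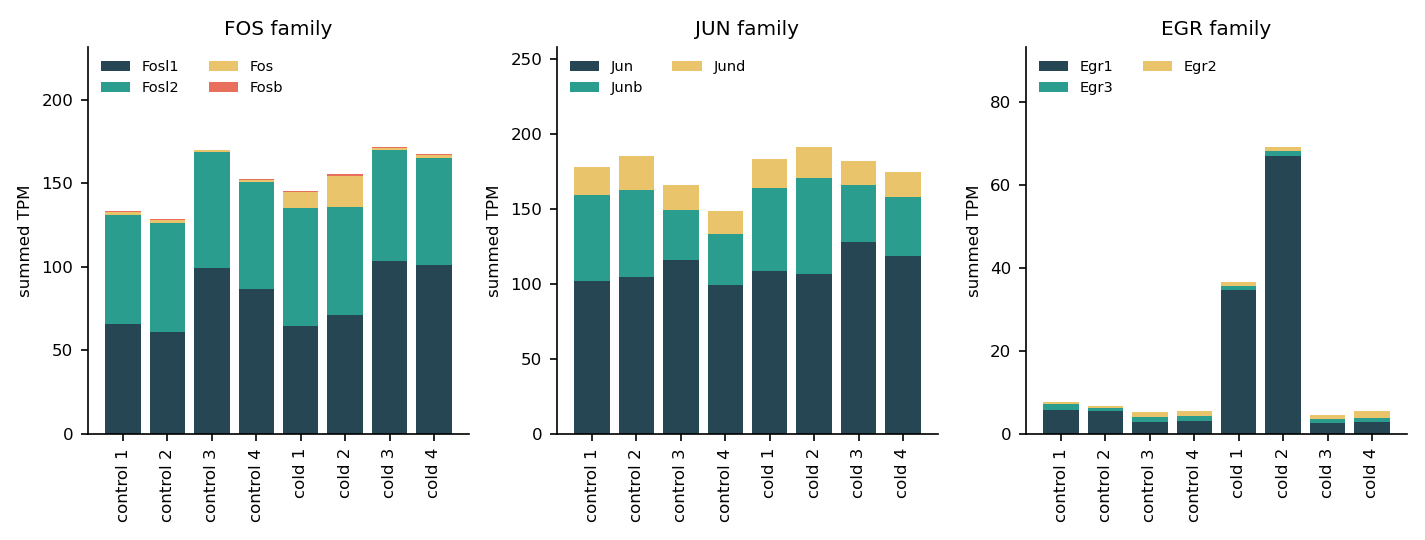
Summed TPM of each family in the 8 libraries (stacked bars from 0, one colour per gene). FOS sums ran from 129 to 172 TPM and JUN sums from 148 to 191 TPM, whereas EGR sums were 36.5 and 69.1 TPM in cold replicates 1 and 2 and 4.50 to 7.72 TPM in the other libraries.

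Jun, the AP-1 subunit that can bind DNA as a homodimer, was the most abundant of the 10 genes in both groups. It had 102, 105, 116 and 99.1 TPM in control and 109, 107, 128 and 119 TPM in cold replicates 1 to 4. By TPM the cold library was higher in 4 of 4 pairs, but by normalized counts the ratio was 0.986 in replicate 2, and the groups overlapped. The log2 fold change of Jun was 0.12 (SE 0.07), with 0.00 (0.05) in replicates 1 and 2 alone and 0.21 (0.08) in replicates 3 and 4 alone. The small difference in Jun therefore lay in the replicates in which Egr1 was not higher. Whether the cold difference differs between the replicate sets was not tested, because the labels do not define them.

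Junb, a JUN protein with weaker activation of many AP-1 sites, had 57.2, 58.2, 33.4 and 34.1 TPM in control and 55.3, 63.6, 38.4 and 39.4 TPM in the cold libraries. Its level in replicates 1 and 2 was 1.71 times that in replicates 3 and 4 at 37°C and 1.53 times after cold. The log2 fold change of Junb was 0.08 (SE 0.26), with −0.02 (0.06) in replicates 1 and 2 alone and 0.22 (0.06) in replicates 3 and 4 alone. Jund, which is expressed at a steady level in many cell types, had 18.9, 22.7, 17.1 and 15.3 TPM in control and 19.6, 20.9, 16.02 and 16.6 TPM in the cold libraries. It was higher in cold in 2 of 4 pairs, with a log2 fold change of −0.04 (SE 0.15). The summed JUN level was 148 to 186 TPM in control and 175 to 191 TPM in the cold libraries, and Jun held 55.9% to 70.1% of it in any library.

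Egr1, a zinc finger factor induced with Fos by serum, had 5.71, 5.39, 2.84 and 2.98 TPM in control and 34.7, 67.0, 2.55 and 2.77 TPM in cold replicates 1 to 4. The first 2 cold libraries lay far above every control library, and the other 2 lay just below the lowest one. The counts were 198, 195, 93 and 105 in control and 1269, 2308, 88 and 96 in cold libraries. The 95% counting interval of the ratio was 5.03 to 6.82 in replicate 1 and 10.4 to 13.95 in replicate 2, against 0.663 to 1.22 in replicate 3 and 0.715 to 1.27 in replicate 4. The upper bounds in replicates 3 and 4 lay under the lower bounds in the other 2. The group means were 4.23 ± 1.53 TPM in control and 26.7 ± 30.8 TPM in the cold libraries (SD, n = 4 per group). The log2 fold change of Egr1 was 2.64 (SE 0.97), with 3.13 (0.22) in replicates 1 and 2 alone, −0.12 (0.17) in replicates 3 and 4 alone and 1.63 (0.87) without cold replicate 2. The SE of 0.22 does not measure the spread of cold replicates 1 and 2, at 34.7 and 67.0 TPM. The fit that gave 2.64 did not pair the libraries. A mean over the 4 pairs, 1.49 by limma on log2(TPM + 0.1), describes no single pair for this gene.

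Egr2 and Egr3, known for roles in Schwann cells and in muscle spindles, were low. Egr2 had 0.59, 0.43, 1.20 and 1.23 TPM in control and 0.80, 1.02, 0.90 and 1.55 TPM in cold replicates 1 to 4. It was higher in cold in 3 of 4 pairs, and the counting interval excluded 1 only in replicate 2 (1.23 to 4.40). Egr3 had 1.42, 0.80, 1.08 and 1.26 TPM in control and 0.99, 1.07, 1.05 and 1.08 TPM in the cold libraries, and was higher in cold in 1 of 4 pairs. Its cold values spanned 0.99 to 1.08 TPM, inside the control range, and the counting interval of its ratio excluded 1 only in replicate 1 (0.458 to 0.994), where cold was lower. The log2 fold changes were 0.33 (SE 0.34) for Egr2 and −0.13 (0.21) for Egr3. That of Egr2 was 0.77 in replicates 1 and 2 alone and 0.06 in replicates 3 and 4 alone. Leaving out 1 library put it between 0.09 (without cold replicate 4) and 0.54 (without control replicate 4), with 0.12 without control replicate 2 and 0.20 without control replicate 1. Egr4, the remaining gene of the family, was at most at 0.12 TPM in any library and did not pass the filter on low counts. Egr1 made up 54.5% to 81.4% of the summed TPM of Egr1, Egr2 and Egr3 in control libraries, 95.1% and 97.0% in cold replicates 1 and 2, and 56.7% and 51.3% in cold replicates 3 and 4.

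**Figure D3:**
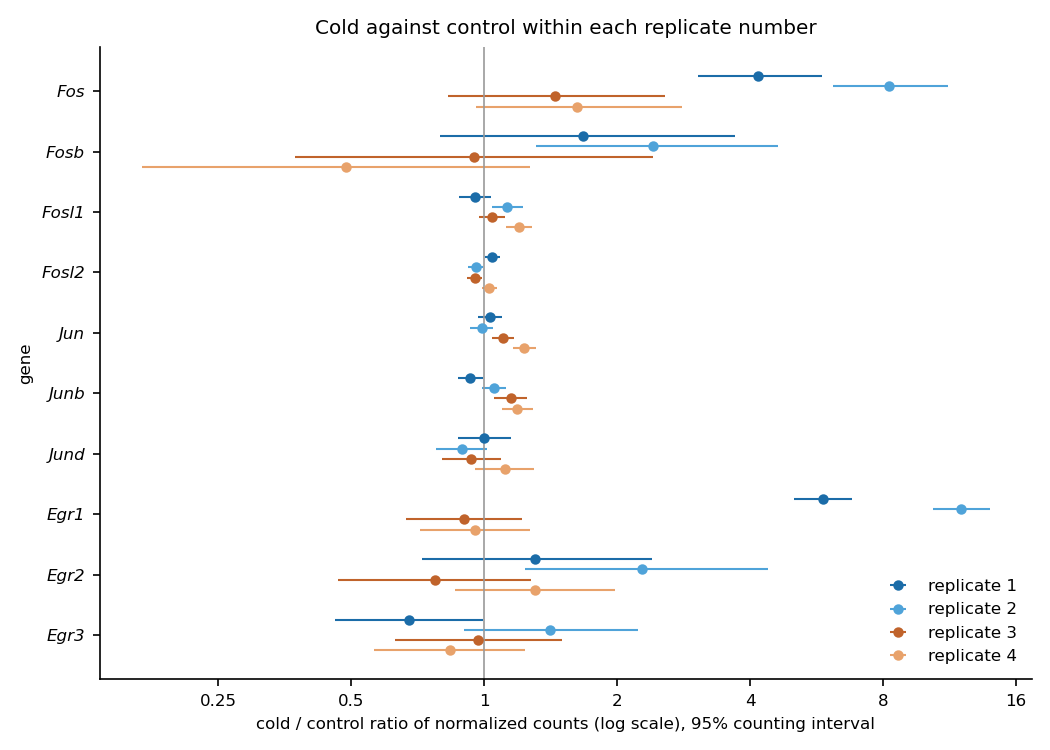
Cold to control ratio of normalized counts for each gene within each replicate number (horizontal log axis, bars are 95% counting intervals). For Egr1 and Fos the blue points of replicates 1 and 2 lie at 4.18 or more and apart from the orange points of replicates 3 and 4, which lie between 0.898 and 1.63.

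By mean TPM at 37°C the order was Jun (105), Fosl1 (78.1), Fosl2 (66.0), Junb (45.7), Jund (18.49), Egr1 (4.23), Fos (1.63), Egr3 (1.14), Egr2 (0.863) and Fosb (0.323). Neighbours whose library ranges overlapped, and which therefore did not differ beyond their spread, were Fosl1 and Fosl2, Fos and Egr3, and Egr3 and Egr2. After cold, Egr1 ranked between Junb and Jund by its mean of 26.7 TPM. Its range of 2.55 to 67.0 TPM overlapped both of them, and the highest Fos value (18.9 TPM) overlapped Jund. Fos, Fosb and the EGR genes were low in these growing cells, whereas Jun and Junb were not. Egr1 and Fos lay at percentiles 22.9 and 12.6 of the control level of all genes tested, against 88.3 for Jun and 74.9 for Junb.

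All 10 genes passed the filter on low counts and entered the edgeR quasi-likelihood fit of 12506 genes. At the study's definition of a changed gene, an adjusted p under 0.05 (Benjamini-Hochberg) with expression different by a log2 fold change of 1 or more, 0 of the 10 were called, where 0.04% of all genes were called. With the p alone, 0 of the 10 passed, where 0.072% of all genes did, each of them lower in cold. At an unadjusted p under 0.05, 2 of the 10 passed in edgeR (6.7% of all genes), and DESeq2 called 0 of the 10 at both thresholds (0.528% of all genes) and 0 by its adjusted p alone (1.14% of all genes, 1.1% lower in cold). With the replicate number as a block, 2 of the 10, Fos and Egr1, passed both thresholds upward, and of all genes 0.848% were called, 0.04% upward and 0.808% downward. The blocked log2 fold changes were 2.11 (SE 0.25) for Fos and 2.29 (0.35) for Egr1. The SD of the 4 pair differences in log2 TPM was 1.22 for Fos and 1.91 for Egr1, so these SEs do not measure the spread between pairs. These counts were read from the contrast on which the genes were chosen and are given as a description. The median log2 fold change was 0.11 over the 10 genes and 0.01 over all genes tested. In none of the 10 genes were control and cold TPM free of overlap, against 4.68% of all genes, and by TPM 2 of the 10 (Fos and Jun) were higher in cold in 4 of 4 pairs, against 12.8%. By normalized counts Jun was not higher in replicate 2.

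The replicate sets also differed from each other at a given temperature, which is described here without a test. In 5 of the 10 genes the 4 libraries of replicates 1 and 2 did not overlap with the 4 of replicates 3 and 4, against 32.6% of all genes tested. Fos, Junb, Jund and Egr1 were higher in replicates 1 and 2, a direction found in 9.09% of all genes, and Fosl1 was lower, as were 23.5% of all genes. At 37°C alone, replicates 1 and 2 already had 2.0 times the Fos and 1.91 times the Egr1 of replicates 3 and 4. Other features moved with the same split. The summed level of 6 fibroblast markers was 1064 to 1139 TPM in replicates 1 and 2 and 1239 to 1490 TPM in replicates 3 and 4, that of 9 SC and myoblast markers, to which Myog, Des and Myod1 gave the most, was 2464 to 3253 and 2039 to 2437 TPM, and that of the 5 macrophage and leukocyte markers was 26.02 to 30.6 and 40.3 to 55.7 TPM, nearly all of it Cd68. Not every SC marker followed its sum, and Myf5, a marker of SCs and myoblasts, was at 99.9 to 121 TPM in replicates 1 and 2 and at 179.5 to 205 TPM in replicates 3 and 4. Of the fibroblast markers, Thy1, Dcn, Lum and Pdgfra were higher in replicates 3 and 4 without overlap. Col1a1 (150 to 174 against 129 to 192 TPM) and Col1a2 (213 to 241 against 155 to 230 TPM) overlapped between the sets. The endothelial, smooth muscle and pericyte, and Schwann cell lists summed to at most 4.14, 34.5 and 2.77 TPM in any library. The part of cell composition in the levels of the 10 genes was not tested, and in bulk RNA fewer cells of a type and less RNA per cell cannot be told apart. The SC and myoblast sum was lower in cold in 4 of 4 pairs, from 3215, 3253, 2437 and 2313 TPM to 2464, 2698, 2254 and 2039 TPM. Myog, a marker of differentiating myoblasts, was lower in each pair as well, from 1008, 1016, 449 and 480 TPM to 564, 628, 314 and 292 TPM. Pax7, which marks SCs, went the other way in pairs 1 to 3, from 10.8, 11.8, 15.8 and 12.5 TPM to 12.9, 12.7, 16.1 and 12.5 TPM, and Myf5 was higher in cold in pairs 1, 2 and 4. Between control and cold, the ranges of the fibroblast and macrophage sums overlapped (1072 to 1490 against 1064 to 1435 TPM, and 26.02 to 54.2 against 26.4 to 55.7 TPM).

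The count of genes with differences of this size in replicates 1 and 2 is given as a description, since the same contrast led to the choice of Egr1 and Fos. Among the 11420 genes tested with a mean of at least 1 TPM, 5 (0.0438%) had a control TPM above 0 and at least 2 times that TPM in cold in both of these replicates, a count set up after the values were seen. They were Egr1, Fos, LOC121140292, Cldn4 and Bmp2. Cldn4 was at 0.05 to 0.16 TPM in those libraries, and Bmp2, a secreted growth factor, went from 0.61 and 0.65 TPM to 1.22 and 1.49 TPM. LOC121140292, with the largest ratios of the 5, went from 0.27 and 0.10 TPM to 7.73 and 2.35 TPM in replicates 1 and 2. It was higher in cold in replicates 3 and 4 too, from 2.03 and 0 TPM to 3.70 and 4.81 TPM. In replicates 3 and 4 the same criterion was met by 14 genes (0.123%), and by none of the 10 genes described here.

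**Figure D4:**
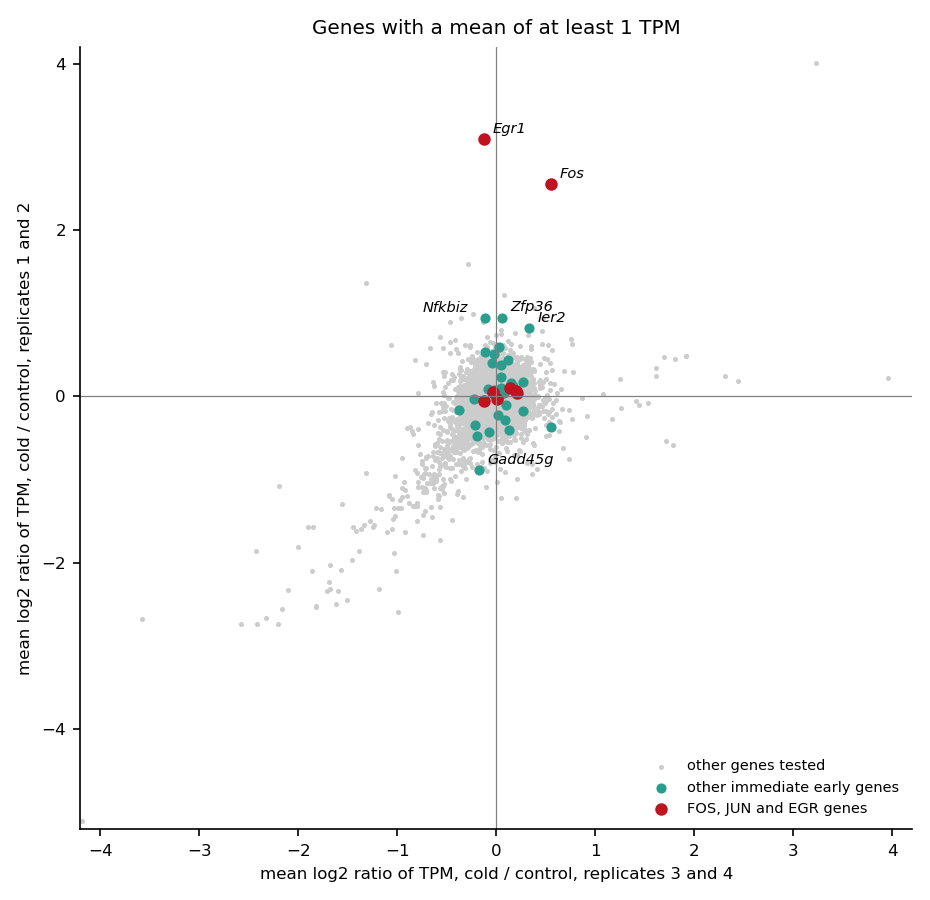
Mean log2 cold to control TPM ratio in replicates 3 and 4 (horizontal) against replicates 1 and 2 (vertical) for genes with a mean of at least 1 TPM, computed on TPM + 0.1. Of the 10 genes, the 8 that reach this level are in red, and Egr1 and Fos, at ratios of 6.07 and 12.4 and of 4.33 and 8.53 in replicates 1 and 2, lie near the top of the vertical axis, while Ier2, Zfp36 and Nfkbiz are the highest of the other immediate early genes (green).

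A list of 36 other immediate early genes was described beside Fos and Egr1, and 35 of them were tested. This list and those below were chosen with earlier results of these data known, so their counts and p-values are given as a description. The other immediate early genes that passed a test did so with the replicate block, and they went both ways. Without the block, 0 of 35 had an adjusted p under 0.05 in edgeR (0.072% of all genes), 5 had an unadjusted p under 0.05 (6.7% of all genes), and DESeq2 called 0 (1.14% of all genes). With the replicate block, 5 rose and 4 fell at an adjusted p under 0.05, 25.7% of the list. Of all genes tested 5.33% were called in this way, 1.26% upward and 4.07% downward. None of the 9 reached a log2 fold change of 1. The median log2 fold change of the list was 0.05, with 23 genes higher and 12 lower.

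Ier2, a small immediate early nuclear protein, rose with the block. It had 6.39, 7.14, 6.89 and 5.82 TPM in control and 10.7, 13.5, 7.90 and 8.09 TPM in cold replicates 1 to 4. All cold libraries lay above all controls, with the largest step in replicates 1 and 2, and the blocked log2 fold change was 0.58 (SE 0.09, edgeR adjusted p = 0.000369, or 0.445 without the block). Myc, a regulator of growth and proliferation, rose by a log2 fold change of 0.21 with the block (SE 0.05, edgeR adjusted p = 0.0104, or 0.503 without it). Unlike Egr1, its cold values were highest in replicates 3 and 4, at 92.9 and 99.3 TPM. Plk2, a polo-like kinase, went from 73.7, 79.4, 148 and 163 TPM to 94.3, 105, 156 and 166 TPM (blocked log2 fold change 0.19, SE 0.05, edgeR adjusted p = 0.0198, or 0.999 without the block).

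Gadd45g, a growth arrest and stress gene, fell with the block and had the highest mean TPM of the list. It had 326, 328, 192 and 188 TPM in control and 180, 175, 165 and 171 TPM in the cold libraries, so that the 2 replicate sets, far apart at 37°C, lay close together after cold. Its blocked log2 fold change was −0.55 (SE 0.10, edgeR adjusted p = 0.00122, or 0.558 without the block). Rhob, an immediate early small GTPase, was lower in cold in 4 of 4 pairs, from 160 ± 41.0 to 132 ± 28.1 TPM (SD, n = 4 per group), with a blocked log2 fold change of −0.30 (SE 0.05, edgeR adjusted p = 0.000249, or 0.958 without the block). Btg2, an antiproliferative gene, had a blocked log2 fold change of −0.37 (SE 0.09, edgeR adjusted p = 0.0185, or 0.801 without the block). Ccn1, a matricellular protein and the second most abundant of the list, was at 181 ± 8.56 and 201 ± 15.7 TPM (SD, n = 4 per group) and did not pass with the block (edgeR adjusted p = 0.0669).

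The other 3 genes called with the block, named after their values were seen, were Zfp36, Ier3 and Gadd45b. Zfp36 encodes tristetraprolin, which destabilizes mRNAs with AU-rich elements, and like Egr1 it was highest in cold replicates 1 and 2. Its control level was 9.52, 9.86, 9.13 and 10.3 TPM, and its cold level was 15.1, 23.4, 10.3 and 9.84 TPM in replicates 1 to 4. The blocked log2 fold change of Zfp36 was 0.54 (SE 0.14, edgeR adjusted p = 0.0256). Ier3, an immediate early survival gene, had a blocked log2 fold change of 0.27 (edgeR adjusted p = 0.0488), and Gadd45b, a relative of Gadd45g, one of −0.29 (edgeR adjusted p = 0.0214). In replicates 1 and 2 together, 3 of the 35 genes, Ier2, Zfp36 and Nfkbiz, reached 1.5 times the control TPM, as did 0.416% of all genes tested. Nfkbiz, a nuclear regulator of NF-kappaB, went from 4.37 and 3.68 TPM to 6.60 and 9.17 TPM in these replicates and from 4.34 and 5.19 TPM to 3.93 and 4.86 TPM in the others. By TPM, 21, 23, 22 and 17 of the 35 genes were higher in cold in replicates 1 to 4, where 7696, 7601, 6728 and 5016 of the 12506 genes tested were. Klf6, a zinc finger factor, was higher in both, from 46.5 and 42.1 TPM to 62.3 and 64.4 TPM, and some genes commonly induced with Fos were not. Dusp1, a phosphatase of MAP kinases, had 50.5 and 51.03 TPM in control and 37.2 and 50.9 TPM in cold, Atf3 had 2.16 and 1.59 against 1.42 and 1.41 TPM, and Nr4a1 had 3.12 and 3.44 against 2.27 and 3.73 TPM. Klf6, Dusp1, Atf3, Nr4a1 and Nfkbiz were also chosen after their values were seen.

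**Figure D5:**
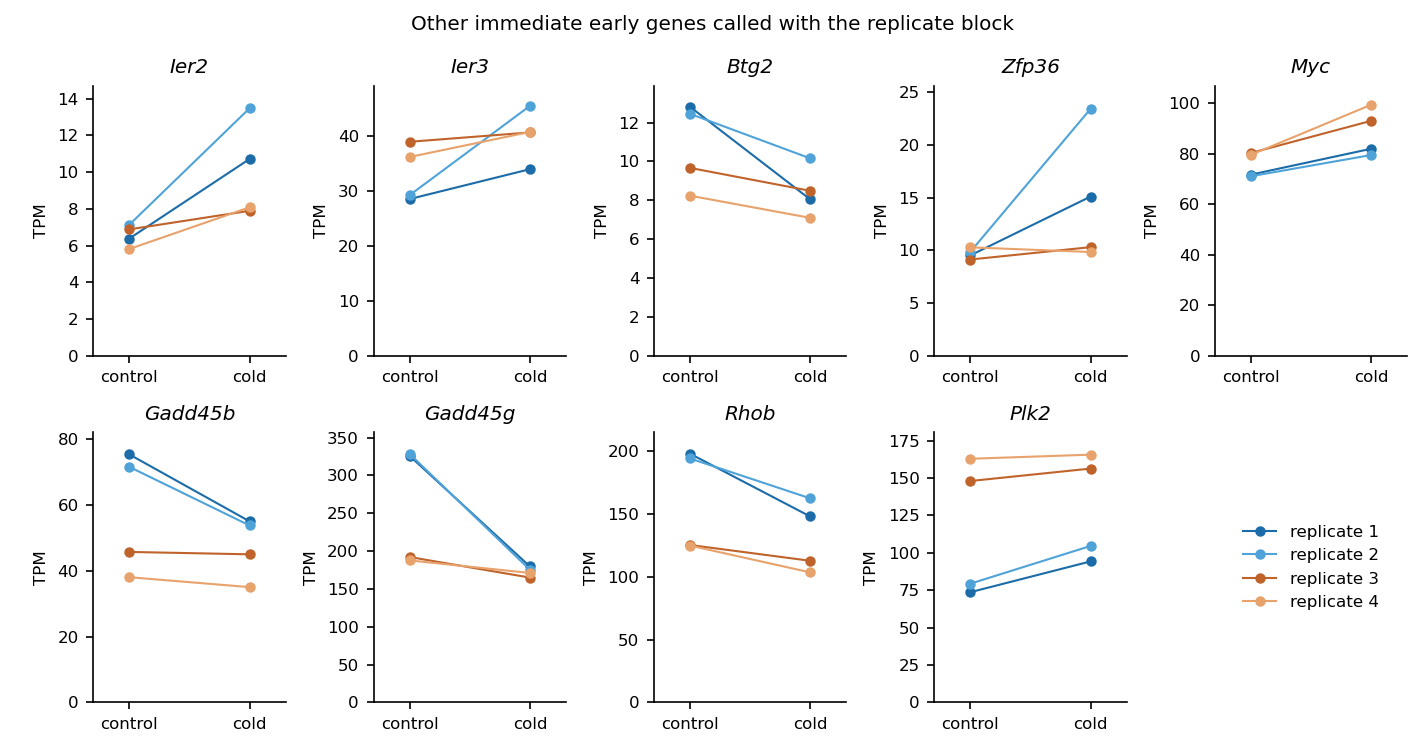
TPM (vertical axis from 0) of the 9 other immediate early genes called with the replicate block, in control and cold libraries, with lines joining libraries of one replicate number. Ier2 and Zfp36 are highest in cold replicates 1 and 2, whereas Gadd45g in those replicates goes from 326 and 328 TPM to 180 and 175 TPM.

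Genes acting upstream or downstream of the 3 families were called in counts of 0 or 1 a list, close to what the shares over all genes give for lists of this size. Of 25 kinases and SRF, TCF and CREB factors, the proteins that relay a stimulus to the Fos and Egr1 genes, 0 were called without the block (0.072% of all genes). In edgeR 2 had an unadjusted p under 0.05 (6.7% of all genes), and DESeq2 called 1 (1.14% of all genes). Their median log2 fold change was 0.01. With the block 1 fell, 4% of the list against 5.33% of all genes tested. It was Rps6ka5, which encodes the histone and CREB kinase MSK1, with 8.99 ± 0.617 TPM in control and 6.71 ± 0.497 TPM in the cold libraries (SD, n = 4 per group), lower in 4 of 4 pairs, a blocked log2 fold change of −0.45 (SE 0.08, edgeR adjusted p = 0.00113, or 0.151 without the block). The most abundant of this list, Map2k2 and Mapk3, which encode the kinases MEK2 and ERK1, were at 145 and 111 TPM in control and at 132 and 113 TPM in the cold libraries. Their edgeR adjusted p was 0.983 and 0.999.

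Of 19 genes for dimer partners, corepressors and turnover of these factors, 17 were tested and 0 were called in edgeR with or without the block or in DESeq2, against 0.072%, 5.33% and 1.14% of all genes, and 2 had an unadjusted p under 0.05 (6.7% of all genes). Their median log2 fold change was 0.02. Atf4, a stress-responsive partner of JUN and FOS proteins, had 458 ± 26.2 TPM in control and 459 ± 26.2 TPM in the cold libraries (SD, n = 4 per group). Of 18 genes for binding and decay of AU-rich mRNAs, 17 were tested and 0 were called by any of the 3 fits, and 1 had an unadjusted p under 0.05, which is close to the same shares over all genes for 17 genes. Their median log2 fold change was 0.02. Hnrnpd, which encodes the AU-rich binding protein AUF1, went from 210 ± 24.9 to 233 ± 37.2 TPM (SD, n = 4 per group, edgeR adjusted p = 0.0555 with the block), and Elavl1, which encodes the stabilizing protein HuR, was at 116 and 118 TPM.

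Of 25 target genes of AP-1 and EGR factors, 20 were tested, and 0 were called by any of the 3 fits or reached an unadjusted p under 0.05 in edgeR, where 0.072% (edgeR), 5.33% (edgeR with the block), 1.14% (DESeq2) and 6.7% (unadjusted p) of all genes did. The median log2 fold change was 0.03, with 13 genes higher and 7 lower. Vim, the intermediate filament vimentin, had 4295 ± 149.8 TPM in control and 4562 ± 180 TPM in the cold libraries (SD, n = 4 per group), and Timp1, an inhibitor of matrix proteases, was at 1934 ± 373 and 1971 ± 293 TPM (SD, n = 4 per group). Among tested genes of these 4 lists with a control TPM above 0 in replicates 1 and 2, 0 reached 1.5 times that TPM in both. Mmp10, a matrix protease of the target list named after its values were seen, had 0.22 and 0 TPM in control and 0.46 and 0.38 TPM after cold in these replicates.

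The genes whose levels over the 8 libraries followed Egr1, Fos and Jun most closely were sought among 10479 named genes by Pearson's r of log2(TPM + 0.1), given as a description of 8 libraries that fall into the 2 replicate sets. For Egr1 they included Ptma (r = 0.987), Naa50 (0.979) and Uap1 (0.979). For Fos they included Vamp4 (0.990), Wdr75 (0.983) and Fubp1 (0.975). These genes followed the shape but not the size of the pattern. Egr1 spanned 26.3-fold and Fos 17.5-fold between their lowest and highest libraries, whereas Ptma, which encodes prothymosin alpha, spanned 1.29-fold and Vamp4, a vesicle fusion protein, 1.25-fold. For Jun the closest were Lrfn3 (0.981), Crat (0.976), Gtpbp3 (0.955) and Faap100 (0.945), which like Jun were highest in cold replicate 3.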

How the data were processed

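The authors deposited one table for 4 control and 4 cold libraries of poly(A) RNA. It holds expected counts, which the authors estimated per gene from read pairs and left unscaled. It also holds TPM values, which the authors computed per library and gave with at most 2 decimals. Another deposited measure, normalized counts (a signal), was not used. The submitters' processing notes name HISAT and HISAT2, and versions, the counting program and the genome build are not given in the sources used here. The counts of the 10 genes were whole numbers in all 8 libraries. No sequences or coordinates were used.

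The expected counts deposited were brought to whole numbers, and edgeR 4.0.16 was run on them (R 4.3.3; filterByExpr, TMM, quasi-likelihood F test, Benjamini-Hochberg over 12506 genes), and standard errors were derived from each log2 fold change and its F value. The script was tested on simulated data. Alternatives used DESeq2 1.42.0, limma 3.58.1 on log2 TPM, other normalizations and filters, a replicate block, and 7 libraries. Fits to replicates 1 and 2 or 3 and 4 alone were added after seeing the data. Ratios within a pair use counts divided by TMM-scaled library sizes, with exact binomial 95% intervals. Figures were drawn with matplotlib 3.10.9. The 10 genes and the gene lists were chosen with earlier results of these data known. The named genes are the 10, list genes called with or without the block (up to 6 a list), the 2 most abundant of each list, and the 4 closest in pattern to Fos, Jun and Egr1. Some genes that this rule names are not reported here.

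The numbers 1 to 4 in the titles and column names were taken to pair the libraries, because deviations from the group means correlated by 0.61, 0.62, 0.65 and 0.66 across genes between control and cold libraries of one number. Between different numbers within a replicate set this was 0.43 to 0.59, and across sets −0.61 to −0.55.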

Additional observations from a re-analysis of the deposited data

Results flagged for a closer look

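Within each group of 4 libraries, the extreme TPM values of each of the 10 genes were checked for isolation with Dixon's ratio. In 20 groups checked, 1 had an isolated value, where chance gives about 1. It was Fosl2 in control replicate 3, at 69.6 TPM, against 64.3 to 65.2 TPM in the other 3 control libraries. The cold values of Egr1 and Fos fell into 2 low and 2 high libraries and were not isolated by this criterion.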

How the results depend on the processing

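The median log2 fold change of the 10 genes, 0.11, stayed within the spread of the 4 pairs under every alternative (0.02 to 0.19). Fos kept a positive sign in 19 of 19 alternatives (0.61 to 2.62) and Egr1 in 18 of 19 (−0.12, in replicates 3 and 4 alone, to 3.13). Of 190 alternative values of the 10 genes, 11 moved by at least the SD of their 4 pair differences, 6 of them in Junb, which lay between −0.09 (without cold replicate 2) and 0.22 (without control replicate 2). Jund lay between −0.14 (without control replicate 4) and 0.09 (without control replicate 2), Fosl1 between 0.01 and 0.23, with 0.05 and 0.02 without control replicates 1 and 2, 0.02 without cold replicate 4, and 0.22 and 0.18 without cold replicates 1 and 2, and Egr3 turned positive, at 0.02, only without control replicate 1. The replicate block called 106 genes past both thresholds in place of 5, and 2 of the 10 genes in place of 0. In the lists, where calls rest on the adjusted p alone, it called 9 other immediate early genes and 1 upstream gene in place of 0 each, and it changed no other call here. Replicates 1 and 2 alone gave 183 genes and 2 of the 10 past both thresholds and, by the adjusted p alone, 14 other immediate early genes, 4 upstream genes, 1 partner gene, 2 AU-rich mRNA genes and 1 target gene, and replicates 3 and 4 alone gave 28 genes past both thresholds and called 0 of the 10 and 0 list genes. For these 2 fits the share of all genes past the adjusted p alone is not given here, so nothing is read from their list counts. The number of genes past both thresholds was 66 with DESeq2 (which also called 1 upstream gene by its adjusted p alone), 8 with library totals, 15 with no filter, 3 with a mean of 10 counts in each group, 3 with limma at a pseudocount of 0.1, 1 or 0.01 TPM. By the adjusted p alone, without the fold threshold, it was 9. Leaving out single libraries gave between 0 and 34 genes: 3, 1, 34 and 0 without control replicates 1 to 4, and 0, 1, 0 and 0 without cold replicates 1 to 4. It gave 0 of the 10 each time. The causes were not tested. Depth limits Fosb, Egr2 and Egr3, with 7 to 66 counts per library, where the interval of most pair ratios included 1.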
